A study of Mus musculus with 3 samples.

Results

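Chaperones and protein disulfide isomerases were examined in a pool of mouse glomerular mesangial and endothelial cells. The set was chosen by gene symbol, not by level: the HSP70, HSP90, HSP60, HSP10, HSP110 and small heat shock protein families, the J proteins, the CCT chaperonin, the BAG cochaperones, the isomerases Pdia3 to Pdia6, the lectin chaperones, heat shock factors and the main factors of the unfolded protein response. It held 103 protein-coding genes of the 39304 rows in the table and of 21304 protein-coding rows. Among them Cct6a is protein-coding in RefSeq but not in the GENCODE M21 annotation. The patterns also took in Hspg2, which encodes the basement membrane proteoglycan perlecan, and Hspb11, an intraflagellar transport gene, neither of them a chaperone gene. Hspg2 had 1.88 ± 0.116 FPKM and Hspb11 22.1 ± 0.632 FPKM (mean ± SD, n = 3), as for every mean given here.

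The cells came from mouse glomeruli (strain C57BL/6, wild type, male, aged 8 weeks), and the labels used here give no number of mice. Glomeruli were taken apart with enzymes and single cells were lysed in a Fluidigm C1 microfluidic system, where marker genes measured by qPCR gave each well its cell type. The cDNA of 15 mesangial and 15 endothelial cells was combined and split into 3 aliquots, each made into its own library. There is 1 group, so every SD is over 3 aliquots of the same cDNA and covers library construction and sequencing, not mice or cells. No library of undigested glomeruli was analysed here, so an effect of the digestion cannot be told apart from the level the cells had before it. The 2 cell types were mixed, so the transcripts of either cannot be told apart, nor can fewer cells with a transcript be told from less of it per cell.

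Values are FPKM, fragments per 1000 bases of a gene and per 1000000 reads, and a gene was called detected at 1 FPKM or more in every aliquot. The libraries held 9141422, 10427635 and 10976563 reads in aliquots 1, 2 and 3, as recovered from the steps of the low FPKM values. All 7 mesangial and all 8 endothelial markers examined were detected, with medians of 949.9 and 215 FPKM; some of them had been used to choose the cells. Of the podocyte markers 6 of 7 were detected, with Ptpro under the limit, a median of 36.7 FPKM and a summed level of 286 to 304 FPKM over the aliquots. Wt1 (101 ± 3.18 FPKM) and Podxl (75.9 ± 2.15 FPKM) were the highest podocyte markers. They exceeded the lowest mesangial marker, Pdgfrb (70.2 ± 1.12 FPKM), and the lowest endothelial markers, Tek and Cdh5. Their means were below those of the other mesangial and endothelial markers. The part of podocyte transcripts in the chaperone levels was not tested. All 5 tubule and all 6 blood cell markers were listed at 0 in each aliquot. A gene listed at 0 had no counted reads. Taken 1 aliquot at a time, counting error alone still allows an expected count of up to 3 reads, 0.273 to 0.328 reads per 1000000.

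Chaperones bind unfolded or partly folded proteins and release them in cycles driven by ATP. Cytosolic HSP70 and HSP90 proteins come in a constitutive form, made in nearly all cells, and a form that the transcription factor HSF1 induces after heat or other proteotoxic stress. In the endoplasmic reticulum (ER), lectin chaperones, the HSP70 protein BiP and protein disulfide isomerases fold secreted and membrane proteins, and the unfolded protein response raises their genes through the sensors IRE1, PERK and ATF6. Enzymatic dissociation of tissue is known to induce heat shock and immediate early genes in many cell types, so the inducible forms are often read as a sign of handling.

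Sequences upstream of the genes are shown first, because they hold matches to known elements of the heat shock and unfolded protein responses. HSF1 binds heat shock elements, inverted repeats of the unit GAA. The forms searched on both strands were GAANNTTC, TTCNNGAA and a longer form of 3 units, GAANNTTC followed by NNGAA, which holds both shorter ones, so matches overlap. RefSeq windows (GRCm38.p6) from 250 bases before to 50 after the gene start were given for 84 of the 103 genes. Among heat-inducible genes with a window, 5 of 7 held a match to any of these forms (Bag3, Hspa1a, Hspa1b, Hspb1 and Hsph1; that of Bag3 lay after the gene start), against 1 of 6 constitutive genes (Dnajb6). The share was 26.2% (22 of 84) over the whole chaperone set and 16.97% over all 27025 genes with a window. The heat-inducible list was made of genes known to be induced by heat, and Hspa1a and Hspa1b are near copies. The shares are therefore described without a test. Genes without a window included Hsp90aa1, Hspa8 and Hsp90ab1. The 250 bases upstream of both stress-inducible HSP70 genes, with the matching element in capitals, show how alike these neighbours are:
Hspa1a, chr17:34972157-34972406, minus strand: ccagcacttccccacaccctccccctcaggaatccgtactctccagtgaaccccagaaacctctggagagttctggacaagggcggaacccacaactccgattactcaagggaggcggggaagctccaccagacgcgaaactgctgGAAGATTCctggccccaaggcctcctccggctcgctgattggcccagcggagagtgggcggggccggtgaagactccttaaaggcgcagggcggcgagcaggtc
Hspa1b, chr17:34959239-34959488, minus strand: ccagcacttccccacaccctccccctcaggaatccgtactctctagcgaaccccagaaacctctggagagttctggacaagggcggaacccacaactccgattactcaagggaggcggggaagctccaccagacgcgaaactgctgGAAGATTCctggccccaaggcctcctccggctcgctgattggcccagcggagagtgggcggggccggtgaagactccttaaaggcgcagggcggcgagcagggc

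The pair agreed at 247 of these 250 positions, the element included. It lay 104 bases before the start of each gene. Shorter stretches, with 1 match in capitals and 20 bases on each side, are given for some further members whose levels are described here. Matches not shown include those of Hspb3, Hspb6, Cct8l1 and Dnajc5g, all listed at 0. Others not shown are those of Hsph1 (1.10 FPKM), Hspb8 (3.58 FPKM), Dnaja4 (4.95 FPKM) and Cct2 (158 FPKM). The Hspb1 stretch opens with another match, GAAGTTTC, left in small letters. Hspd1 and Hspe1 each held another match of 3 units, which overlaps the match in capitals. They are read in opposite directions from 1 shared region, so their element is the same stretch on the other strand:
Hspb1, chr5:135887802-135887849, plus strand: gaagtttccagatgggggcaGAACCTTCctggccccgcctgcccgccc
Dnaja1, chr4:40722324-40722371, plus strand: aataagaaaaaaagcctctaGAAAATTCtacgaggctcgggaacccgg
Hspd1, chr1:55088039-55088091, minus strand: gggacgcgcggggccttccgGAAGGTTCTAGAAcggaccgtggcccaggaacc
Hspe1, chr1:55088039-55088091, plus strand: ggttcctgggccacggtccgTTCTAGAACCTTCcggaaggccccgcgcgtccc
Dnajb6, chr5:29735832-29735884, plus strand: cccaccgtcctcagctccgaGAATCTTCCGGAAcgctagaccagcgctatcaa

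Genes of ER chaperones carry a different element, CCAAT and CCACG with 9 unspecified bases between them, known as the ER stress element and originally described in genes of this kind. Matches on either strand were found for 6 of 84 members (7.14%) and for 37 of all 27025 genes (0.137%). The 6 were Calr, Canx, Dnajc3, Hsp90b1, Hspa5 and Pdia6, and Hsp90b1 held 2. Their levels ran from 40.4 to 2514 FPKM with a median of 218 FPKM, against a median of 10.7 FPKM for the other members with a window. All 6 are genes of ER chaperones or isomerases, while the other members are of many kinds. The element and the kind of gene cannot be told apart in this comparison. Capitals mark the element in each stretch:
Calr, chr8:84847055-84847113, minus strand: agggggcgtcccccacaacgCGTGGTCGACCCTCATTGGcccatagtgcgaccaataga
Canx, chr11:50325780-50325838, minus strand: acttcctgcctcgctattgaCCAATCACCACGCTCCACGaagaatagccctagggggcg
Dnajc3, chr14:118937807-118937865, plus strand: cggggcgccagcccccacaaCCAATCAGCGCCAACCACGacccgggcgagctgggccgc
Hsp90b1, chr10:86705618-86705676, minus strand: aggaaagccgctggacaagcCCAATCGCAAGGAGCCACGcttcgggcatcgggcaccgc
Hspa5, chr2:34772005-34772063, plus strand: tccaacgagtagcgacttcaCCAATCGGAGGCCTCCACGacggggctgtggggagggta
Pdia6, chr12:17266471-17266529, plus strand: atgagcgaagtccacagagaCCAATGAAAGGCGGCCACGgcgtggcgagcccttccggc

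The unfolded protein response element TGACGTGG was found for 1 member, Dnajc25, which was listed at 0, and in 0.714% of all genes. The ATF4 element TGATGCAA was found for 0 of 84 members and in 1.03% of all genes. A match describes letters in the window and not the binding of a factor.

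Most of the chaperone set was detected. Of 103 members 74 were detected, 10 had reads but stayed under the limit in some aliquot, and 19 were listed at 0. Over all protein-coding rows 36.4% were detected and 54.6% were listed at 0. The median member had 12.7 FPKM, 59 members had a mean of at least 10 FPKM and 13 at least 100 FPKM. Together the set took 1.302% ± 0.00956 of the reads of a library. A few genes dominated: the first 8 made up 72.4% of the summed FPKM, and Canx alone 30.8%. Among 73 pairs of neighbours in the order of detected members, 28 were apart in the sense that the lowest aliquot of the higher gene exceeded the highest aliquot of the next, so nearby ranks are often not distinct.

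**Figure D1:**
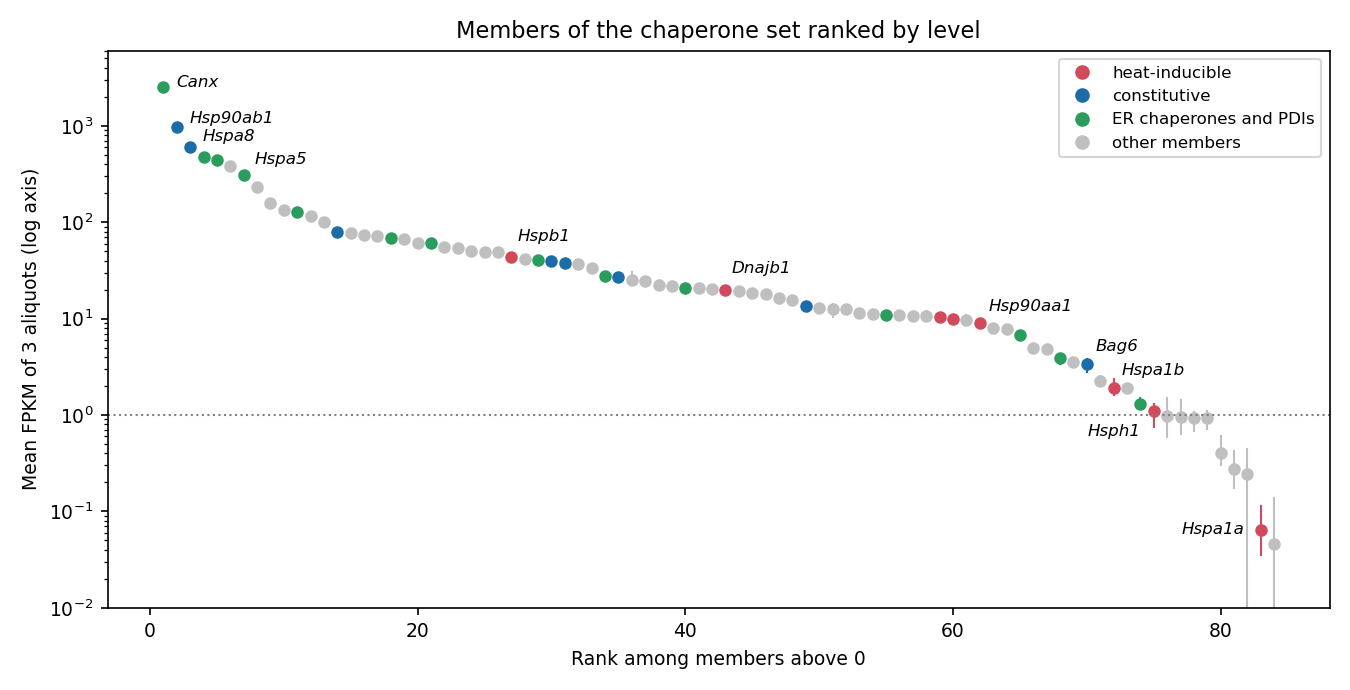
Mean FPKM of the 3 aliquots (log axis) for the 84 members above 0, ranked from the highest, with vertical lines from the lowest to the highest aliquot and the detection limit of 1 FPKM dotted; a line that reaches the lower edge includes an aliquot listed at 0. Canx leads at 2514 FPKM, constitutive Hsp90ab1 and Hspa8 follow, and heat-inducible Hspa1b, Hsph1 and Hspa1a lie near or under the limit.

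The heat-inducible list held Hspa1a, Hspa1b, Hsp90aa1, Hsph1, Dnajb1, Hspb1, Bag3 and Hspa4l, and the constitutive list Hspa8, Hsp90ab1, Hspa4, Dnaja2, Dnajb6, Dnajc7, Bag1 and Bag6. Of the heat-inducible genes 6 of 8 were detected, with a median of 9.45 FPKM, and of the constitutive genes 8 of 8, with a median of 38.4 FPKM. Their ranges overlapped, 0.0637 to 43.2 FPKM for the inducible and 3.39 to 963 FPKM for the constitutive genes. On the log2(FPKM + 1) scale the inducible median was below the constitutive one by a difference of -1.83, -1.96 and -1.98 in aliquots 1, 2 and 3 (mean -1.92 ± 0.08). Summed FPKM was 95.7 ± 2.56 for the inducible list and 1758 ± 48.3 for the constitutive list. Most of the constitutive sum came from Hsp90ab1 (mean 963 FPKM) and Hspa8 (mean 596 FPKM). By mean, the inducible Hspb1 was below Hsp90ab1, Hspa8 and Dnajc7 and above the constitutive Hspa4, Dnajb6, Dnaja2, Bag1 and Bag6. A wider inducible list, which adds Dnaja1, Hspd1, Hspe1, Dnajb4 and Hspb8, had a median of 10.4 FPKM and a sum of 688 ± 9.61 FPKM, with Dnaja1 the highest at 379 ± 2.83 FPKM. The lists are different genes, so these are descriptions with no test. With mean log2 values in place of medians the difference was -3.0.

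Within the HSP70 family Hspa1b (ENSMUSG00000090877, chromosome 17, 34956436 to 34959238, minus strand, GRCm38), a stress-inducible gene, had 2.36, 1.61 and 1.82 FPKM in aliquots 1, 2 and 3, from 146 reads. Its inducible neighbour Hspa1a (ENSMUSG00000091971, chromosome 17, 34969190 to 34972156, minus strand) had 0.0428, 0.113 and 0.0357 FPKM, which rest on 1, 3 and 1 reads. The constitutive gene Hspa8 (ENSMUSG00000015656, chromosome 9, 40800984 to 40810087, plus strand), which encodes HSC70, had 583, 598 and 607 FPKM from 24189 reads. Hspa8 stood far above both in every aliquot, and the aliquots of Hspa1b and Hspa1a did not overlap. The log2 ratio of Hspa1b to Hspa8 was -7.95, -8.54 and -8.38 in the 3 aliquots, a mean of -8.29 ± 0.31, -7.20 with lengths set to the longest annotated transcript and -7.68 with 1 FPKM added to both values. For Hspa1a the 5 reads gave 0.0641 FPKM over the pooled libraries, with an exact 95% Poisson interval of 0.0208 to 0.1496 FPKM for counting error only.

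The levels of Hspa1a and Hspa1b are uncertain because most of their sequence is common to both. Of the 50-base windows of the longest annotated transcript, 66.3% for Hspa1a and 62.3% for Hspa1b also occurred in transcripts of other genes, mainly of each other. How reads with several matches were counted is not given in the sources used here. Among other genes with shared windows, Hspa8 had 52.7% in common with other genes and was the third-highest member. Hsph1, one of the lowest inducible genes, shared 0%. Whether shared reads lowered any of these values was not tested. With the 10 members sharing over 40% of windows left out, the inducible minus constitutive difference of medians was -1.59 on the log2(FPKM + 1) scale, a setting chosen after seeing the data.

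**Figure D2:**
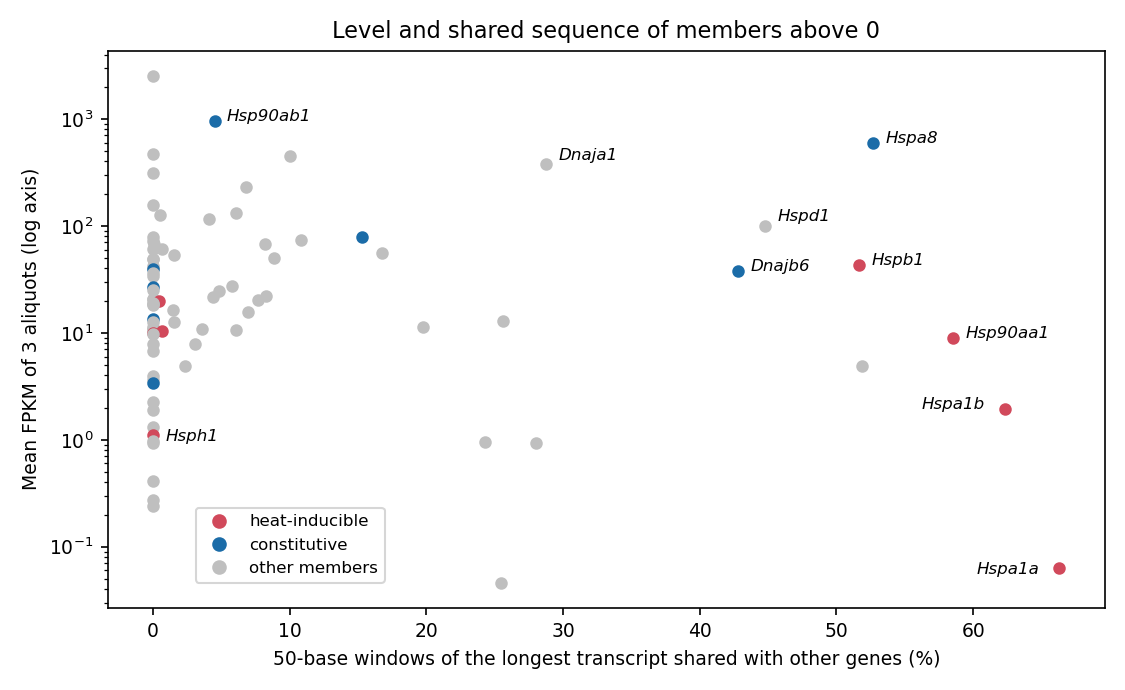
Mean FPKM of the 3 aliquots (log axis) against the percentage of 50-base windows of the longest transcript that also occur in transcripts of other genes, 1 point per member above 0. Members that share over 40% of windows span the range from Hspa1a at 0.0637 FPKM to Hspa8 at 596 FPKM, and Hsph1 is low with 0% shared.

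The HSP90 pair showed the same order. Hsp90aa1 (ENSMUSG00000021270, chromosome 12, 110690605 to 110702728, minus strand), the inducible HSP90 alpha, had 8.67, 9.54 and 8.603 FPKM from 324 reads. Hsp90ab1 (ENSMUSG00000023944, chromosome 17, 45567775 to 45573271, minus strand), the constitutive HSP90 beta, had 936, 954 and 999 FPKM from 25953 reads and was the second-highest member. The ratio of Hsp90aa1 to Hsp90ab1 was -6.75, -6.64 and -6.86 on the log2 scale, a mean of -6.75 ± 0.11, that is, 108-fold lower for the inducible gene. Hsp90aa1 shared 58.5% of its windows with other genes and Hsp90ab1 4.49%, and the part of this in the ratio was not tested. The pseudogene Gm12346, which held most of the shared windows of Hsp90aa1, was itself listed with a mean of 6.06 FPKM.

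The HSP110 proteins exchange nucleotides on HSP70. The inducible Hsph1 had 1.24, 1.31 and 0.759 FPKM, and the constitutive Hspa4 36.6, 40.4 and 40.4 FPKM, with no overlap. Their log2 ratio was -5.19 ± 0.47, -6.30 with longest transcript lengths and -4.26 with 1 FPKM added to both values. Hspa4l, an inducible relative, had 10.3, 10.7 and 10.1 FPKM and lay between the pair.

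Other inducible genes were well above the limit. The small heat shock protein gene Hspb1, which encodes HSP25 in the mouse, had 44.4, 40.1 and 45.3 FPKM and was the highest of the inducible list of 8. Of its windows 51.6% were shared with other genes, among them the pseudogene Hsp25-ps1, and the part of this in its level was not tested. Dnajb1, the J protein partner of inducible HSP70, had 19.5, 20.3 and 20.3 FPKM, against 36.1, 37.9 and 39.1 FPKM for the constitutive Dnajb6. The log2 ratio of Dnajb1 to Dnajb6 was -0.91 ± 0.03, but it turned to 0.19 with lengths set to the longest annotated transcript, so this order depends on gene length. Dnajb6 shared 42.8% of its windows with other genes. Bag3, which links HSP70 to small heat shock proteins and selective autophagy, had 10.4, 9.11 and 10.4 FPKM, and Bag1, a nucleotide exchange factor of HSP70, 13.96, 13.5 and 12.9 FPKM. Their log2 ratio was -0.43 ± 0.13, and -0.38 with longest transcript lengths. A heat shock element was found for Hspb1, Bag3 and Hspa1b, which were detected, as well as for Hspa1a and Hsph1, which were not.

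**Figure D3:**
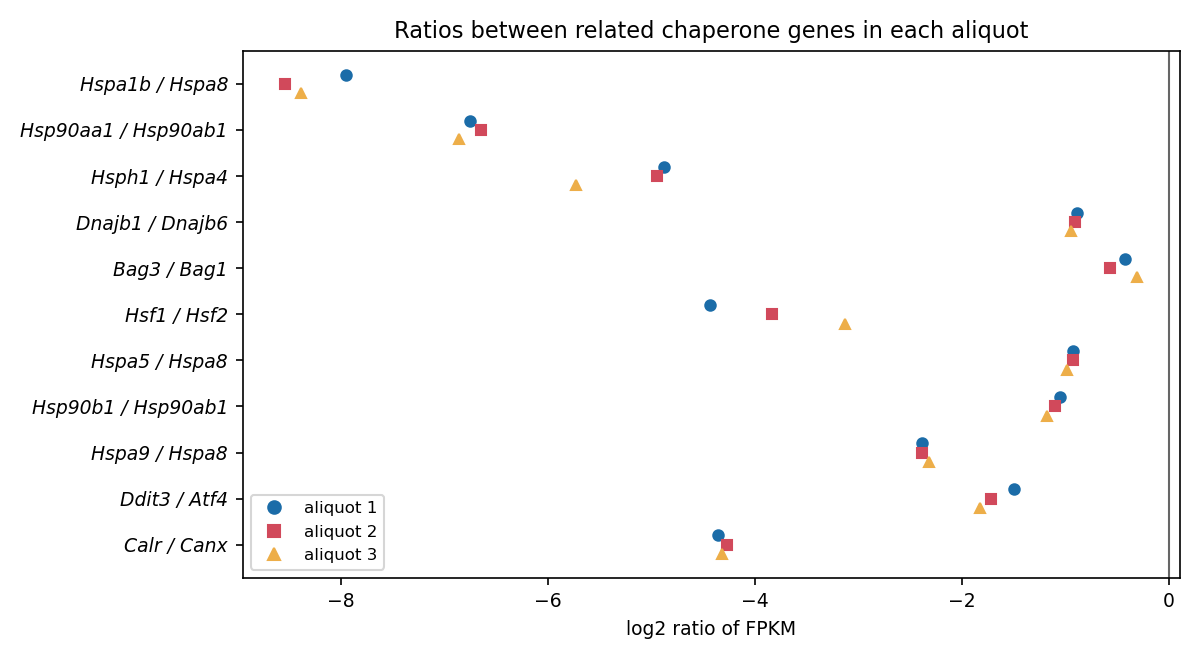
Log2 ratio of FPKM between the 2 genes named on each line, 1 marker per aliquot, with 0 (equal FPKM) at the vertical line. Hspa1a to Hspa8 is not drawn, since Hspa1a rests on 5 reads. All ratios drawn lie below 0; of these Hspa1b to Hspa8 and Hsp90aa1 to Hsp90ab1 are the lowest at -8.29 and -6.75, and Dnajb1 to Dnajb6 changes sign when longest transcript lengths are used.

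The factors that switch on the heat shock genes differed among themselves. Hsf1, the main stress-responsive factor, had 0.596, 0.855 and 1.49 FPKM from 62 reads and lay on both sides of the detection limit. Hsf2, which acts with HSF1 and in development, had 12.9, 12.2 and 13.005 FPKM, above Hsf1 in every aliquot. The log2 ratio of Hsf1 to Hsf2 was -3.80 ± 0.66, and -2.81 with 1 FPKM added to both values. Hsf4, known for its role in the lens, was listed at 0 in each aliquot. HSF1 is controlled largely on the protein, so its transcript level does not measure its activity.

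The remaining constitutive genes covered a wide range. Dnajc7, a J protein that also binds HSP90, had 74.7, 81.98 and 78.1 FPKM. Dnaja2, a partner of HSC70, had 25.8, 27.9 and 27.6 FPKM. Bag6, which directs tail-anchored and defective proteins, had 3.57, 3.81 and 2.81 FPKM and was the lowest of the constitutive list. Among small heat shock proteins other than Hspb1, Hspb8, the partner of BAG3, had 3.84, 3.36 and 3.55 FPKM. Hspb2 had 1.04, 0.685 and 1.08 FPKM from 12 reads, with 28.04% of its windows shared with its neighbour Cryab. Hspb3, Hspb6, Hspb7 and Hspb9 were listed at 0. Of the BAG genes Bag5 had 17.6, 17.99 and 19.8 FPKM and Bag4 10.7, 11.2 and 11.8 FPKM, and Bag2 was listed at 0.

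All subunits of the CCT chaperonin, the double ring that folds actin and tubulin, were detected. Cct2 had 153, 157 and 162 FPKM and Cct8 131, 127 and 139.5 FPKM, the highest of the 8. The others lay closer together. Cct7 had 73.7, 78.4 and 81.7 FPKM. Tcp1, the alpha subunit, had 75.5, 72.5 and 74.9 FPKM. Cct4 had 56.05, 60.9 and 64.8 FPKM. These were followed by the zeta subunit Cct6a with 53.7, 55.4 and 57.2 FPKM. Cct3 had 53.2, 52.6 and 54.9 FPKM, and Cct5 was the lowest with 47.7, 50.1 and 49.2 FPKM. Cct7 and Tcp1 overlapped, as did Cct4 with Cct6a and Cct6a with Cct3. The ring holds each subunit in equal number, while the ratio of the highest to the lowest transcript was 3.22, 3.14 and 3.29 in the 3 aliquots and 1.59 without Cct2 and Cct8. With longest transcript lengths Cct4 was the lowest, at 24.7 FPKM, against 26.2 FPKM for Cct5, and the ratio was 6.39. The testis form Cct6b and Cct8l1 were listed at 0. Prefoldin, which hands substrates to CCT, had 6 of 6 genes detected, led by Pfdn5 (389 ± 6.07 FPKM) and Vbp1 (141 ± 0.937 FPKM).

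Mitochondrial chaperones were detected for 6 of 8 genes. Hspa9, the matrix HSP70 mortalin, had 112, 115 and 121 FPKM. The chaperonin Hspd1 (HSP60), with 44.8% of windows shared with other genes, had 102, 97.6 and 102 FPKM, and its lid Hspe1 (HSP10) 70.7, 66.3 and 65.5 FPKM. These 2 genes share the upstream region with the heat shock element shown with them, and the aliquots of Hspd1 were all higher than those of Hspe1. With longest transcript lengths that order turned, with 52.8 FPKM for Hspd1 and 60.9 FPKM for Hspe1. Dnajc19, a J protein of the import motor, had 49.996, 50.1 and 50.8 FPKM. Dnajc11, tied to the inner membrane folds, had 10.97, 11.5 and 10.03 FPKM, and Dnaja3, the matrix partner of mortalin, 10.9, 9.58 and 8.49 FPKM. The import-related Dnajc15 had 0, 0.444 and 0.281 FPKM from 5 reads, and Dnajc30 1.41, 0.827 and 0.628 FPKM. The log2 ratio of Hspa9 to cytosolic Hspa8 was -2.36 ± 0.04.

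The ER held the most abundant chaperone transcript. Canx (ENSMUSG00000020368, chromosome 11, 50293961 to 50325673, minus strand), the membrane lectin chaperone calnexin, had 2524, 2512 and 2508 FPKM from 147432 reads, rank 14 among protein-coding genes. Its soluble relative Calr, calreticulin, had 123, 130.1 and 126 FPKM, and the log2 ratio of Calr to Canx was -4.31 ± 0.04. Both bind the same sugar on glycoproteins. With lengths set to the longest transcript Canx had 1128 FPKM and was still the highest member, and the ratio was -4.05.

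BiP and GRP94 are ER members of the HSP70 and HSP90 families. Hspa5 (ENSMUSG00000026864, chromosome 2, 34771970 to 34777547, plus strand), which encodes BiP, had 306, 315 and 307 FPKM, and Hsp90b1, which encodes GRP94, 451, 444 and 441 FPKM. Both were below their cytosolic constitutive relatives in every aliquot, with log2 ratios of -0.95 ± 0.03 for Hspa5 to Hspa8 and -1.11 ± 0.06 for Hsp90b1 to Hsp90ab1. Hspa13, an HSP70-like ATPase of microsomes, had 57.3, 61.1 and 62.3 FPKM. Each of these 3 ER genes was far above the inducible cytosolic Hspa1b and Hsp90aa1.

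All 10 ER chaperone genes were detected, the J proteins at lower levels than Canx, Hsp90b1, Hspa5, Calr and Hspa13. Dnajc3, a cochaperone induced by ER stress, had 40.1, 39.7 and 41.5 FPKM. Dnajb9 had 27.6, 29.1 and 25.9 FPKM, and the reductase Dnajc10 19.3, 23.04 and 20.2 FPKM. Dnajc1, which spans the ER membrane, had 10.1, 11.8 and 10.8 FPKM. Dnajb11, a partner of BiP in the lumen, had 4.09, 4.32 and 3.41 FPKM and was the lowest. Among the isomerases, which form and shuffle disulfide bonds, Pdia3 had the highest level, 462, 491 and 469.8 FPKM. Its protein ERp57 acts on glycoproteins held by calnexin and calreticulin. Pdia6 had 66.1, 68.7 and 70.3 FPKM, Pdia5 6.05, 6.84 and 7.51 FPKM and Pdia4 1.19, 1.51 and 1.21 FPKM, and no neighbours among the 4 overlapped. Of 11 further genes of this kind 10 were detected, with Tmx2 at 109.9 ± 2.23 FPKM, P4hb, the classical disulfide isomerase, at 103 ± 1.44 FPKM, Tmx4 at 91.9 ± 1.42 FPKM and Txndc12 at 55.4 ± 4.04 FPKM. Erp29 had 3.25 ± 0.394 FPKM, and Pdia2 was listed at 0.

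**Figure D4:**
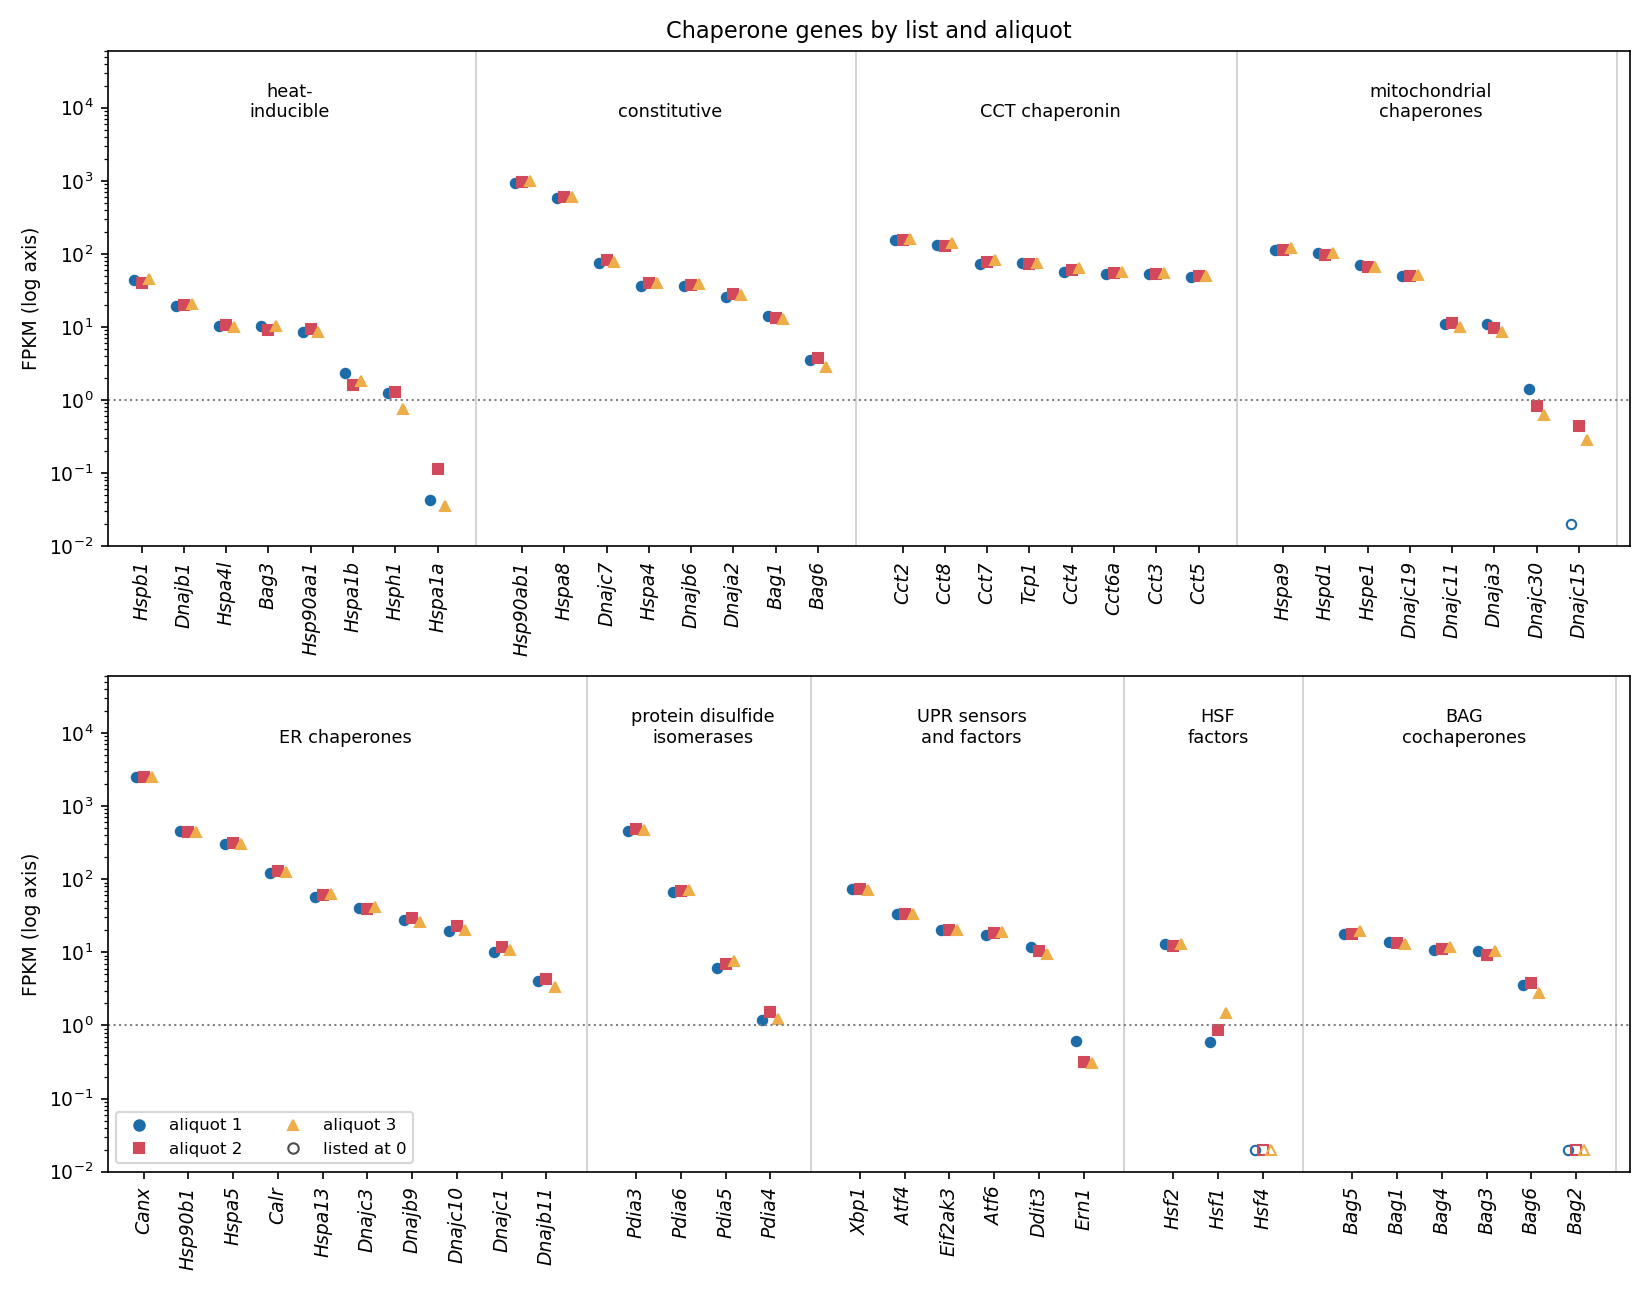
FPKM (log axis) of each gene in each aliquot, grouped by list and ordered by mean, with the detection limit of 1 FPKM dotted and open markers for values listed at 0. The heat-inducible genes reach a mean of 43.2 FPKM at Hspb1, below constitutive Hsp90ab1, Hspa8 and Dnajc7 and above the means of the other constitutive genes. The CCT genes run from 49.02 to 158 FPKM, and the ER list starts with Canx.

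The sensors and factors of the unfolded protein response were detected except for Ern1. Xbp1, a transcription factor activated by IRE1 splicing, had 72.8, 73.5 and 71.6 FPKM, and Atf4, translated when PERK is active, 33.9, 33.8 and 33.5 FPKM. Eif2ak3, which encodes PERK, had 20.3, 20.1 and 20.1 FPKM, and Atf6 17.1, 18.2 and 18.8 FPKM. Ern1, which encodes IRE1 alpha, had 0.605, 0.318 and 0.302 FPKM from 33 reads and was the lowest of the 6. Ddit3, which encodes the death-associated factor CHOP, had 12.01, 10.3 and 9.44 FPKM, and its log2 ratio to Atf4 was -1.68 ± 0.17. Spliced and unspliced Xbp1 are not separated by gene-level FPKM.

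Genes that these factors act on, outside the chaperone set, covered a wide range. Of 12 ER stress targets 10 were detected, led by Herpud1 (265 ± 4.64 FPKM), a component of ER-associated degradation, Sel1l (47.8 ± 0.605 FPKM), Manf (41.1 ± 2.696 FPKM) and Sil1 (33.9 ± 0.851 FPKM), an exchange factor of BiP. The lowest were Derl1 (0.139, 0 and 0.116 FPKM) and Derl3, listed at 0. Of 10 targets of ATF4 and CHOP 2 were detected, Nupr1 (247 ± 5.26 FPKM) and Ppp1r15a (12.9 ± 0.313 FPKM), which encodes a regulator of the eIF2 alpha phosphatase. The next were Ddit4 (0.1298, 0.0569 and 0 FPKM) and Trib3 (0, 0 and 0.173 FPKM), and Asns, Phgdh, Psat1 and Slc7a11 were listed at 0.

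Immediate early genes, known to respond to tissue digestion, gave the setting for the heat-inducible genes. Of 18 such genes 10 were detected, with a median of 1.88 FPKM over the list. Nfkbia, the inhibitor of NF-kappaB, had 172, 177 and 176 FPKM, the phosphatase gene Dusp1 151, 142 and 151 FPKM, Klf6 63.3 ± 0.881 FPKM and Btg2 22.8 ± 0.356 FPKM. Fos and Junb were listed at 0 in each aliquot, as were Atf3 and Egr2, while Jun had 13.2 ± 1.27 FPKM and Egr1 2.28 ± 0.1703 FPKM. The list was therefore not uniform: Nfkbia, Dusp1 and Klf6 exceeded Hspb1, the highest of the 8 heat-inducible genes, and others were listed at 0. Dnaja1, in the wider inducible list, exceeded all 18 on the deposited scale. All cells had passed through the same digestion, and a relation of these levels to it was not tested.

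**Figure D5:**
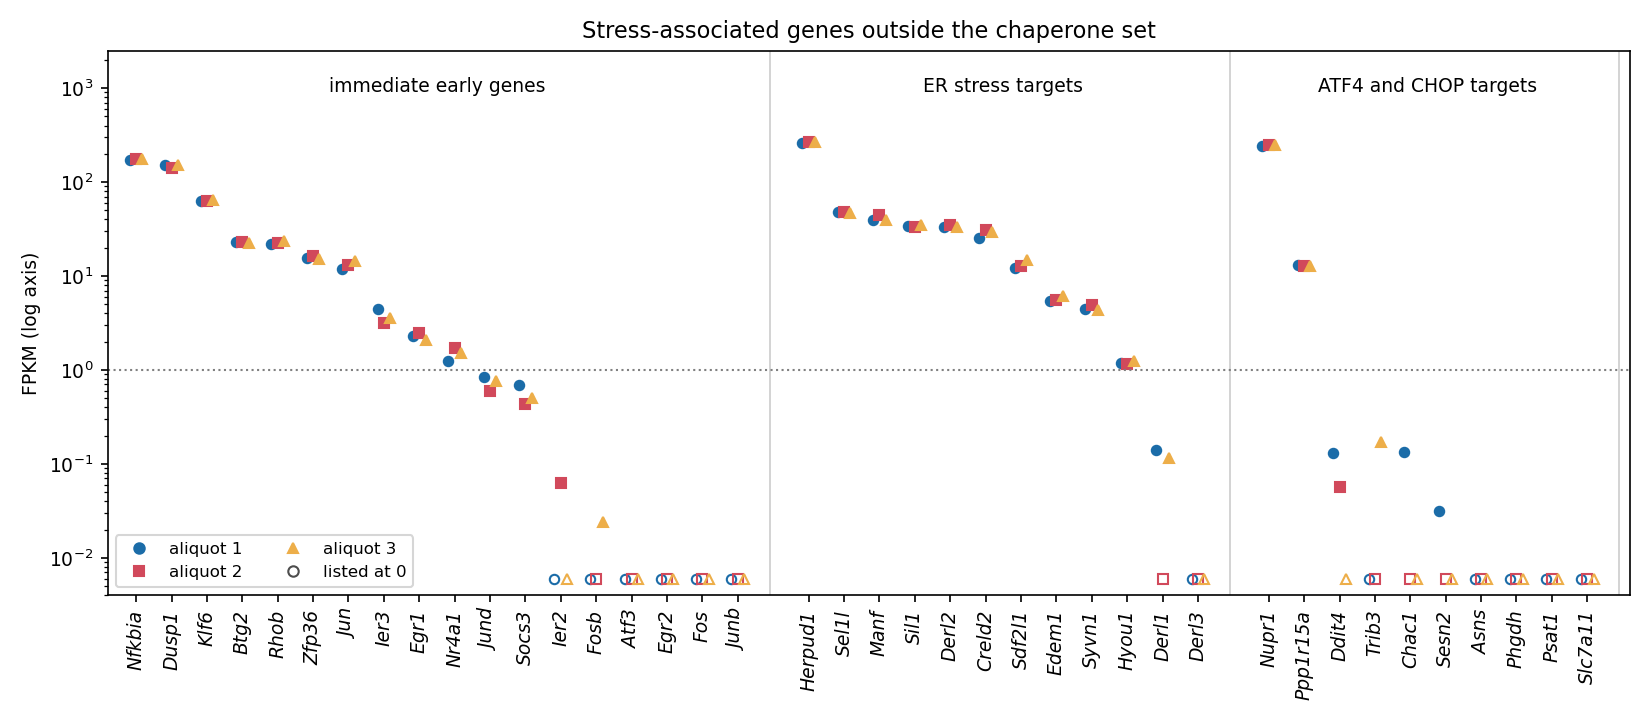
FPKM (log axis) of immediate early genes, ER stress targets and targets of ATF4 and CHOP in each aliquot, none of them in the chaperone set, with open markers for values listed at 0 and the limit of 1 FPKM dotted. Nfkbia, Dusp1, Herpud1 and Nupr1 lie above 100 FPKM in every aliquot, while Fos, Junb and Atf3 are listed at 0.

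Cochaperones that work with HSP90 and HSP70 were all detected, 14 of 14, with a median of 30.8 FPKM. Ptges3, the HSP90 cochaperone p23, had 1827 ± 52.7 FPKM and exceeded Hsp90ab1. St13, which encodes the HSP70 interacting protein HIP, had 1052 ± 29.96 FPKM, the cyclophilin Ppid 143 ± 3.86 FPKM and Tomm34 83.7 ± 2.33 FPKM. The lowest were Cdc37, which loads kinases on HSP90, with 4.36 ± 0.5001 FPKM, and Stub1, the ubiquitin ligase CHIP, with 3.53 ± 0.974 FPKM.

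J proteins, which deliver substrates to HSP70 and start its ATPase, were the largest family, with 30 of 45 detected and 10 listed at 0. By class, 4 of 4 DNAJA, 7 of 13 DNAJB and 19 of 28 DNAJC genes were detected. Dnaja1, a general partner of HSC70, led with 377, 378 and 382 FPKM, though 28.8% of its windows were shared with other genes. Dnajc8, a splicing-associated J protein, followed with 223, 231 and 237 FPKM. The cysteine string protein gene Dnajc5 had 49.3, 48.5 and 49.1 FPKM. Dnajb4 had 42.9, 39.6 and 43.2 FPKM, and Dnajc18 36.04, 35.7 and 38.1 FPKM. Dnajc9, a histone chaperone, had 23.6, 24.05 and 25.9 FPKM. The ER membrane protein Dnajb14 had 22.4, 21.7 and 21.2 FPKM, and Dnajc21, a factor of ribosome biogenesis, 19.5, 18.8 and 19.1 FPKM. Dnajc12, a partner of aromatic amino acid hydroxylases, had 16.3 ± 0.892 FPKM, Dnajc2, which sits at the ribosome, 15.7 ± 0.8596 FPKM, and Dnajc13 of endosomes 4.88 ± 0.0794 FPKM.

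The 10 J protein genes listed at 0 were Dnajb2, Dnajb3, Dnajb7, Dnajb8, Dnajb13, Dnajc5b, Dnajc5g, Dnajc6, Dnajc22 and Dnajc25. Several of them are known mainly from testis, and Dnajc6, auxilin, from neurons. Of 9 germline-enriched forms over all families, 8 were listed at 0, among them Hspa1l, and Hspa2 alone was detected (7.42, 8.41 and 7.95 FPKM). The atypical HSP70 genes Hspa12a and Hspa12b had 21.01, 21.2 and 19.6 FPKM, and 2.55, 2.09 and 2.12 FPKM; Hspa12b is known from endothelial cells, whose markers were detected here. Dnajb5 (0.424, 0.223 and 0.176 FPKM), Dnajc16 (0.955, 0.717 and 1.098 FPKM) and Dnajc17, with 1 read in aliquot 2, had reads under the limit. The other members, Dnaja4, Dnajc4, Dnajc14, Dnajc24, Dnajc27 and Dnajc28, had means between 4.95 and 12.8 FPKM.

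Few members were called as differing between aliquots by more than counting error. Recovered reads were set against library size with a chi-square test over 9119 genes with at least 30 reads. After adjustment by Benjamini and Hochberg it called 2 of 79 members tested, against 1.09% of all genes. At an unadjusted p under 0.05 it gave 12 members, 15.2% of those tested, against 11.4% of all genes. Counting error alone would give 5%. The median chi-square was 1.97 for members and 1.81 for all genes, against 1.39 for counting error alone. The spread was thus wider than counting error over members and over all genes. Recovered reads can be too low, which lowers chi-square where a common factor was missed. Dnajb12, an ER membrane J protein, had 30.1, 22.9 and 22.7 FPKM and was highest in aliquot 1 (chi-square test across all genes, adjusted p = 4.1e-05). Hsp90ab1 was lowest in aliquot 1 and highest in aliquot 3, with the values given before (chi-square test across all genes, adjusted p = 0.0089). Neither was called without the first aliquot (chi-square test across all genes, adjusted p = 0.99 for Dnajb12 and 0.38 for Hsp90ab1). Without the third aliquot Dnajb12 was called and Hsp90ab1 was not (chi-square test across all genes, adjusted p = 0.00097 and 0.73). The median coefficient of variation was 4.29% over detected members and 4.42% over detected protein-coding genes. It was under 5% for 44 detected members and over 10% for 11. Reads of amplified cDNA are not independent molecules, so the test covers counting error only.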

How the data were processed

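Expression was measured by RNA sequencing in 3 aliquots of 1 cDNA pool. The authors deposited FPKM values, scaled by gene length and by library size, in 1 table of 39304 rows. TopHat2 2.0.12, HTSeq 0.6.1 and GRCm38 are named, per the submitters' processing notes; for settings, annotation release and length definition, no source used here gives any. Symbols were matched for 37607 identifiers, and coordinates and transcripts came from GENCODE M21 (GRCm38). The members and lists were chosen with earlier results of these data known.

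The size of each library was the commonest solution for 1 read among low genes (under 0.5 FPKM), taking gene length as the mean over transcripts. Read numbers were the smallest making the length and all 3 values whole within 0.0001 reads. They were found for 11141 of 11142 genes above 0 and summed to 96.7% of each total. A common factor cannot always be resolved, so reads of a gene to which no factor was applied are a lower estimate. The length implied by the values was within 1 base of the mean transcript length for 38 of 84 members above 0, and comparisons between genes rest on the length used. A count of 3 reads was 0.328, 0.288 and 0.273 per 1000000 in the aliquots. No count model was fitted to FPKM. The recovery was checked on simulated reads with gene lengths set to the mean over transcripts. The chi-square test was checked on the simulated reads themselves, not on reads recovered from them. Both used counting error alone, so neither check covers genes with another length or spread beyond counting error. Lists and ratios were described without tests. Named genes were all members, and of the other lists the 4 highest and 2 lowest; Jun, Egr1, Ddit4, Trib3, Gm12346, Hsp25-ps1 and Cryab lie outside that rule and were named after their values were seen, as were all genes of a list tied at 0. Python 3.11.15, pandas 2.3.3 and scipy 1.17.1 were used.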

Additional observations from a re-analysis of the deposited data

How the results depend on the processing

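The numbers of detected genes stayed within 1.5 times of those reported at limits of 0.5 or 5 FPKM, with 1 FPKM as the mean, with longest transcript lengths and without any 1 aliquot: 65 to 79 of all members, 5 to 7 heat-inducible and 7 or 8 constitutive genes. The inducible minus constitutive difference of medians (-1.92 on the log2 scale) was below 0 in every setting tried: -2.02 with a pseudocount of 0.1 FPKM, -1.81 without members under 1 FPKM, -1.77 with a wider inducible list of 13 genes, -3.0 with means, -2.68 with longest transcript lengths and -1.97 to -1.90 without 1 aliquot. In settings chosen after seeing the data it was -1.81 without Hspa1a and Hspa1b and -1.59 without members that share over 40% of their windows. The number of members called beyond counting error was 2 with minimums of 10 or 100 reads and with totals from recovered reads. It was 0 to 2 without 1 aliquot. With longest transcript lengths the log2 ratio of Dnajb1 to Dnajb6 was 0.19 in place of -0.91, and over members above 0 the level was, at the median, 0.569 times the deposited one. Of the levels of single genes and the ratios, 71 moved beyond the SD in that setting and 24 did not. Without any 1 aliquot 96 of 96 stayed within it. Leaving out 1 of 3 values cannot move their mean beyond their SD, so this outcome was fixed and shows nothing about stability. A pseudocount of 1 FPKM moved 6 of 12 ratios, which stayed below 0. With upstream windows of 100 bases, 12 members held any heat shock element, 9 the GAANNTTC form and 2 an ER stress element, against 22, 17 and 6 with 250 bases. The matches of the heat-inducible Hspa1a and Hspa1b were among those lost.

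No paired analysis was possible because the series has 1 group. The 19 members listed at 0 and the 5 with 1 to 21 reads are not shown to be absent from the cells, and what part depth, capture or amplification of the cDNA had in this was not tested. Levels of genes with shared sequence or uncertain length are the least secure.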
